A study of Mus musculus with 8 samples.

Results

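Genes for the handling of aldehydes, alcohols and reactive oxygen were examined in RNA sequencing of mouse gastric squamous-columnar junction (SCJ) cancers and control SCJ tissue. The members were the rows whose symbol begins with Aldh, Adh or Gst plus a class letter (a, k, m, o, p or t) and a number, together with Nqo1, Gclc, Gclm, Hmox1, Txnrd1, Gsr, Cat, Sod1, Sod2, Gpx1 and Gpx2. This gave 57 of the 23361 genes in the table. The gastric SCJ is the border between the squamous forestomach and the glandular stomach. The 5 cancers, labelled Trp53-/-Rb1-/-, were dissected late after tamoxifen from mice with loxP-flanked Trp53 and Rb1, the Ai9 tdTomato reporter and an Lgr5 knock-in allele that carries eGFP and CreERT2. Cre in these mice was active in Lgr5+ cells, so that the deletions were made in those cells and their descendants, whereas the dissected tissue also held other cells. The 3 controls were the SCJ of age-paired wild-type stomachs, without these alleles. The methods of the study give tamoxifen to control mice of the tumor induction, without saying whether the sequenced wild-type mice were among them. The control mice of its survival curves carried the loxP-flanked genes and had no tamoxifen. The labels do not state that each sample came from a separate animal, so the p-values measure the spread between these samples.

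Alcohol dehydrogenases oxidize alcohols, retinol among them, to aldehydes, and aldehyde dehydrogenases oxidize aldehydes further to carboxylic acids. Glutathione S-transferases couple glutathione to reactive compounds, and the transcription factor NRF2 drives many of these genes together with the enzymes that supply glutathione and reduce quinones. In the stomach the surface epithelium meets ingested alcohols and aldehydes directly, and several of these enzymes are abundant there.

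Levels of 22 of these genes were lower in the cancers and of 3 higher, counts that depend on scaling. FPKM (fragments scaled by transcript length and by library, so that levels can be compared between genes) was available as whole numbers, and a gene was tested when it reached 1 FPKM in at least 3 samples. Of the 57 members 53 were tested, 22 fell and 3 rose (limma, adjusted p under 0.05), and 28 did not pass. Adh6a met the filter through the controls alone, which fixes its direction, and 21 fell without it. Among all 14357 tested genes, 18.3% were called lower and 16.2% higher by the same rule. The median log2 fold change of the members was -1.32, against -0.04 over all tested genes. Fold changes are differences of log2(FPKM + 1), cancers minus controls, a scale that understates the change of low genes. With every cancer below every control stood 27 members, where 19.8% of all tested genes did so, and with every cancer above every control 3, where 14.4% did. The 3 genes that rose were Adh1, Aldh1a2 and Gstm5. In bulk tissue, fewer cells of a type and less RNA per cell cannot be told apart.

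These counts depend on how the libraries are scaled. Summed FPKM was between 403569 and 573858 in the cancers and between 887141 and 992550 in the controls. Scaling all libraries to one common sum (TPM) moved the median of all tested genes to 0.81 and that of the members to -0.42, and 11 members were then called higher and 5 lower, against 50% and 3.68% of all tested genes. Below the median of all tested genes lay 44 of 53 members with FPKM, 44 with TPM and 44 with quantile normalization, not in each case the same genes (Adh5 was below only with FPKM). The calls with TPM were lower for Adh6a, Aldh1a1, Aldh3a2, Aldh3b2 and Aldh6a1, and Adh1, Aldh1a2 and Gstm5 were among the 11 called higher. All 25 calls kept their sign in each of 8 fits that left out 1 library, but apart from Adh6a only Aldh3a2, Aldh6a1 and Sod2 passed the threshold in all 8. Leaving out cancer 3 gave 10 lower calls, cancer 5 gave 14, and control 1, 2 or 3 gave 8, 4 or 4. Higher calls numbered 0, 1 and 0 without control 1, 2 or 3.

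**Figure D1:**
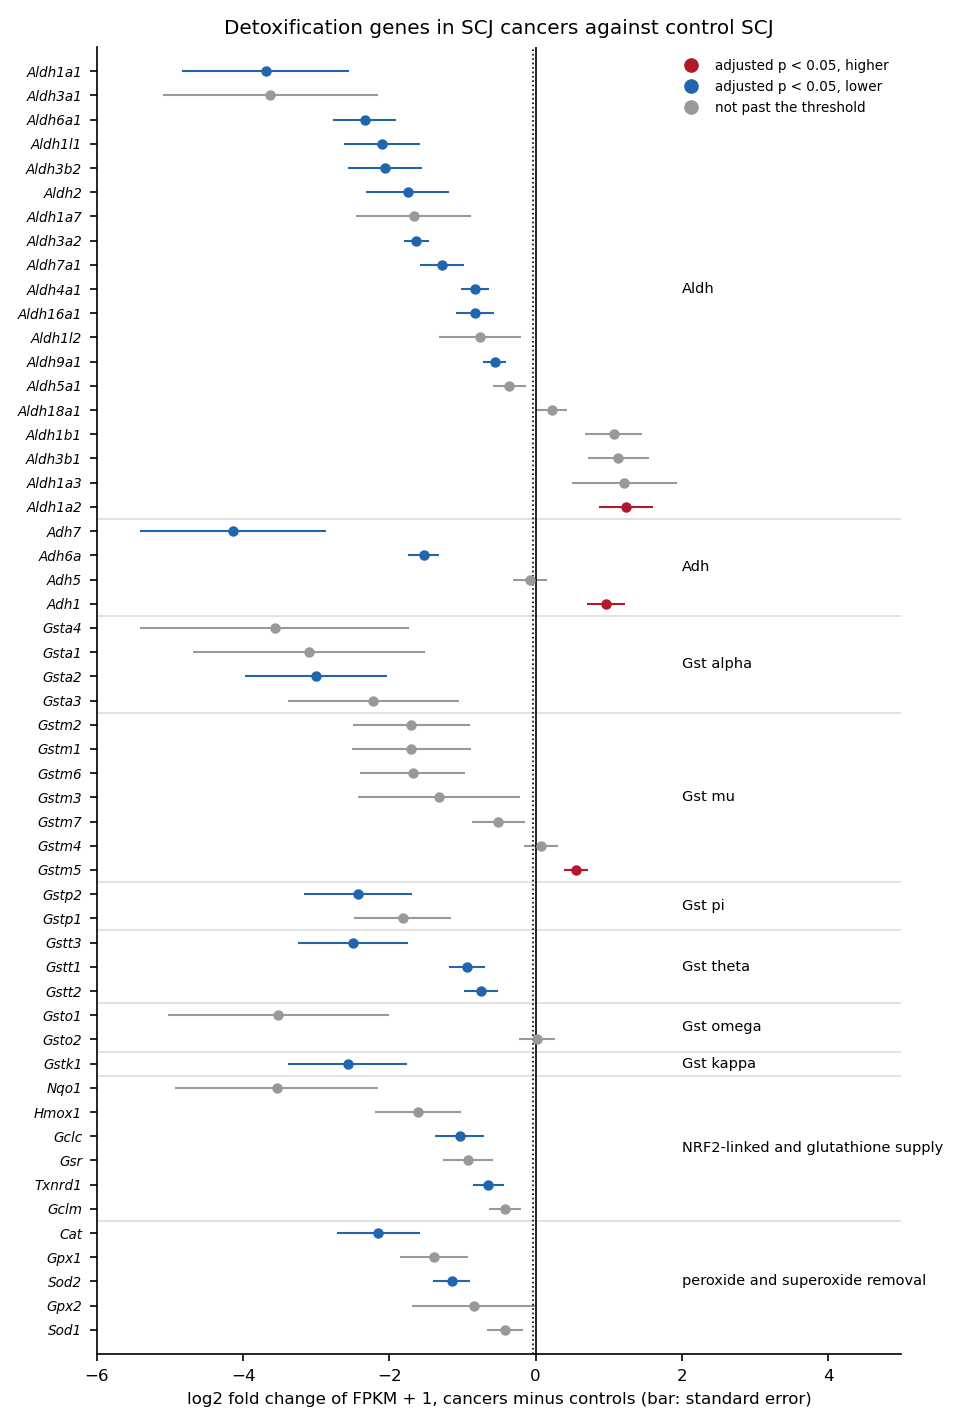
Log2 fold change of FPKM + 1 (cancers minus controls, x axis) for the 53 tested members (y axis) in 10 groups, with bars for the standard error and colour for the limma call. The dotted line is the median of all tested genes (-0.04), and 44 members lie to its left. With TPM that median moves to 0.81 and 22 members are positive. Adh6a is listed at 0 in every cancer, so that its point is no fold.

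Promoter sequences are shown for 5 of the members. They are the 250 bases before the start site in the RefSeq annotation of GRCm38.p6 (a patch release of mm10), read 5′ to 3′ on the gene's strand. Nqo1 and Gclm are textbook targets of NRF2 and did not pass the threshold. Gstm5 was the member of the Gst classes examined that rose, and Adh7 and Adh1 are neighbours that moved in opposite directions. Nqo1 is at chr8:107403206-107403455 on the minus strand. Gclm is at chr3:122245307-122245556, Gstm5 at chr3:107895604-107895853, Adh7 at chr3:138217523-138217772 and Adh1 at chr3:138277335-138277584, all on the plus strand. Capitals mark the letters TGACNNNGC, the core of the antioxidant response element to which NRF2 binds, searched on both strands.
Nqo1: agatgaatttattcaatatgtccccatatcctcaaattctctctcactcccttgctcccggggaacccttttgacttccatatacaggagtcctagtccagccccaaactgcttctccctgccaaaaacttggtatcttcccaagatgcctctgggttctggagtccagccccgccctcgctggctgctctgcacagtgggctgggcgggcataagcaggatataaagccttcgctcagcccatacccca
Gclm: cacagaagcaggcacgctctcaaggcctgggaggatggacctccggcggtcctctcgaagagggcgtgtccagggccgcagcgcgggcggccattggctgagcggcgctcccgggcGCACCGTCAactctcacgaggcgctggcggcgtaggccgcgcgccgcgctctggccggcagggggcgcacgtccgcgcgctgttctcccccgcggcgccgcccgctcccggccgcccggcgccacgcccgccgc
Gstm5: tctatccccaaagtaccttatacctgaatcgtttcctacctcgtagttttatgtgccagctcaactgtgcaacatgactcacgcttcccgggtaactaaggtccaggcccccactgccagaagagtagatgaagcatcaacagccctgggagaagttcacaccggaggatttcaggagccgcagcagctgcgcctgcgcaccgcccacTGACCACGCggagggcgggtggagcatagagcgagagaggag
Adh7: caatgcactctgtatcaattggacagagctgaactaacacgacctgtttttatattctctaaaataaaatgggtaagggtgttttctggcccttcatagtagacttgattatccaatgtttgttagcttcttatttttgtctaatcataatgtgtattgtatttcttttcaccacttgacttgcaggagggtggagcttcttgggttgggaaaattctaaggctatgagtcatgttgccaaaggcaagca
Adh1: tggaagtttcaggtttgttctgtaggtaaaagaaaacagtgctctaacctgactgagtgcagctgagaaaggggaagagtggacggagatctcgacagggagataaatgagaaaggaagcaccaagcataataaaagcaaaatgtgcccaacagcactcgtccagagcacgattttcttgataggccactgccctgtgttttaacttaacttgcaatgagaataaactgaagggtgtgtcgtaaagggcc
The letters began 134 bases before the Gclm start, where they read on the opposite strand, and 42 bases before the Gstm5 start. They were absent from these windows of Nqo1, Adh7 and Adh1, which says nothing about sites elsewhere. Of the 57 members 45 had such windows, 57 in all, and 9 windows (15.8%) held the letters, as did 10.2% of 32851 windows of all genes. Counted by gene the shares were 20.0% of the members and 11.5% of all genes. Besides Gclm and Gstm5 the genes were Gsta3, Aldh9a1, Gstm7, Adh6a, Aldh1a2, Txnrd1 and Sod1. The RefSeq starts of Adh7 and Gstm5 lay 7056 and 18624 bases inside the locus given in the table.

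Of the 4 alcohol dehydrogenase genes tested, 2 fell, 1 rose and 1 did not pass, where 18.3% of all tested genes fell and 16.2% rose. The falls include Adh6a, whose direction the filter fixed. Adh7 (chromosome 3, 138210717 to 138239663, mm10), the class IV enzyme of the upper digestive tract that oxidizes ethanol and retinol, had 0, 43, 11, 65 and 26 FPKM in cancers 1 to 5 and 403, 240 and 217 in controls 1 to 3. Every cancer was below every control, and cancer 1 was listed at 0. On the log2 scale Adh7 differed by -4.14 (standard error 1.27, limma adjusted p = 0.040), the largest fall among the members. The adjusted p was 0.10 with a pseudocount of 0.1, 0.088 and 0.062 without cancer 3 or 5, and 0.13, 0.10 and 0.10 without control 1, 2 or 3. Adh7 overlaps the locus of 0610031O16Rik in the table.

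Adh1 (chromosome 3, 138277645 to 138290691), the class I enzyme for ethanol and retinol, had 99, 95, 84, 94 and 173 FPKM in the cancers, against 44, 65 and 54 in the controls. All 5 cancers were above all 3 controls, with cancer 5 highest. Adh1 rose by 0.96 on the log2 scale (standard error 0.26, limma adjusted p = 0.025), and by 0.78 without cancer 5 (limma adjusted p = 0.015). Without control 1 or 3 the limma adjusted p was 0.099 or 0.075. Adh6a had 0 FPKM in each cancer and 2, 3 and 1 in the controls, close to the lowest level the whole numbers can show, and its test carries no weight because the filter set its direction. Adh5, the class III enzyme that clears formaldehyde bound to glutathione, had 35, 43, 46, 65 and 45 FPKM in the cancers, against 54, 59 and 36 in the controls (a log2 change of -0.08, standard error 0.23, limma adjusted p = 0.80). The groups overlapped for Adh5, and with TPM its value was 0.88 (limma adjusted p = 0.014), near the shift of all genes. Adh4 and Adh6-ps1 were listed at 0 in all 8 libraries.

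The makeup of this family within each library does not depend on scaling between libraries. Adh7 took 80.1%, 65.4% and 70.5% of the summed Adh FPKM in the controls and 0%, 23.8%, 7.80%, 29.0% and 10.7% in cancers 1 to 5. The share of Adh1 was 8.75%, 17.7% and 17.5% in the controls and 73.9%, 52.5%, 59.6%, 42.0% and 70.9% in the cancers. Adh7 was thus the leading transcript of the family in each control and Adh1 in each cancer. These ratios were chosen after the values were seen and carry no test. The pair lie in 1 cluster on chromosome 3, with Adh1 starting 66.9 kb from the start of Adh7.

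Of the 19 tested aldehyde dehydrogenase genes, 10 fell, 1 rose and 8 did not pass, with a median log2 fold change of -0.83. Of all tested genes 18.3% fell and 16.2% rose, at a median of -0.04. With TPM the median of the family was about 0 and that of all tested genes 0.81. The retinal dehydrogenases, which make retinoic acid, did not share a direction. Aldh1a1 (chromosome 19, 20601982 to 20643462), with the highest FPKM of this family in controls 1 and 2, had 2, 77, 16, 124 and 40 FPKM in the cancers, against 528, 431 and 228 in the controls. No cancer reached the lowest control, and cancer 1 was lowest. Its difference was -3.69 on the log2 scale (standard error 1.14, limma adjusted p = 0.041), and -2.79 with TPM (limma adjusted p = 0.048). With quantile normalization or a pseudocount of 0.1 the limma adjusted p was 0.055 or 0.052. Without cancer 3 or 5 the limma adjusted p was 0.092 or 0.067, and without control 1, 2 or 3 it was 0.13, 0.11 or 0.086. Reads can be shared with its near copy Aldh1a7, which had 1, 16, 2, 14 and 11 FPKM in the cancers, against 27, 29 and 13 in the controls, so the split between both is uncertain.

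Aldh1a2 and Aldh1a3, other retinal dehydrogenases, are named here after their values were seen, as are Aldh3a1, Aldh3a2, Aldh1b1 and Aldh3b1. Aldh1a2 had 4, 9, 2, 4 and 5 FPKM in the cancers, against 1, 1 and 2 in the controls, so that cancer 3 met control 3. It rose by 1.23 (standard error 0.37, limma adjusted p = 0.036), with whole numbers this low giving few steps. Its limma adjusted p was 0.061, 0.055 and 0.069 without cancer 1, 4 or 5, and 0.12, 0.11 and 0.060 without control 1, 2 or 3. Aldh1a3 had 1, 16, 6, 7 and 21 FPKM in the cancers, against 3, 3 and 2 in the controls. Cancer 1 lay below the controls and the other 4 cancers above them (a log2 change of 1.21, standard error 0.72, limma adjusted p = 0.22), and without cancer 1 the limma adjusted p was 0.030. Of the summed FPKM of Aldh1a1, Aldh1a2 and Aldh1a3, Aldh1a1 took between 98.3% and 99.2% in the controls and 28.6%, 75.5%, 66.7%, 91.9% and 60.6% in cancers 1 to 5.

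Among the enzymes for dietary and lipid aldehydes, Aldh2, the mitochondrial enzyme for acetaldehyde, had 22, 105, 19, 79 and 43 FPKM in the cancers, against 131, 145 and 173 in the controls. Every cancer was below every control, with cancers 1 and 3 lowest (a log2 change of -1.75, standard error 0.57, limma adjusted p = 0.047). Of the fits that left out 1 library, this call held only in those without cancer 2 or 4. The limma adjusted p was 0.084, 0.088 and 0.082 without cancer 1, 3 or 5 and 0.11, 0.12 and 0.14 without control 1, 2 or 3. With TPM the value of Aldh2 was -0.80 (limma adjusted p = 0.15). Its limma adjusted p was 0.078 with quantile normalization and 0.052 with a pseudocount of 0.1. Aldh3a1, which oxidizes medium-chain and aromatic aldehydes, had 0, 81, 18, 130 and 50 FPKM in the cancers, against 339, 277 and 327 in the controls. The groups did not overlap, but the cancers spread widely (a log2 change of -3.63, standard error 1.47, limma adjusted p = 0.089), and the limma adjusted p was 0.030 without cancer 1. Its neighbour Aldh3a2, the fatty aldehyde dehydrogenase of the endoplasmic reticulum, had 30, 42, 38, 33 and 32 FPKM in the cancers, against 135, 105 and 92 in the controls. Here the 5 cancers were close to each other and all far below the controls. Aldh3a2 fell by 1.63 (standard error 0.17, limma adjusted p = 0.0011), the smallest adjusted p among the members, and the difference was -0.67 with TPM (limma adjusted p = 0.018).

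Aldh6a1 (chromosome 12, 84409068 to 84450950), the methylmalonate semialdehyde dehydrogenase of valine breakdown, had 15, 28, 22, 63 and 20 FPKM in the cancers, against 111, 171 and 132 in the controls. Cancer 4 was the nearest to the controls and still below them. The log2 fold change was -2.34 (standard error 0.43, limma adjusted p = 0.0067), and it passed in each fit without 1 library. Aldh1l1, the 10-formyltetrahydrofolate dehydrogenase, had 3, 11, 3, 14 and 11 FPKM in the cancers, against 24, 37 and 43 in the controls (a log2 change of -2.10, standard error 0.52, limma adjusted p = 0.020). The groups did not overlap, and without control 2 or 3 the limma adjusted p was 0.070 or 0.077. Aldh4a1, Aldh7a1, Aldh9a1 and Aldh16a1 fell by between 0.56 and 1.28 on the log2 scale, and with TPM Aldh4a1, Aldh9a1 and Aldh16a1 were at 0.01, 0.38 and 0.07. Aldh6a1, Aldh7a1 and Aldh16a1 overlap other loci of the table.

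Aldh3b2 and Aldh3b1 are neighbours with unlike values. Aldh3b2 had 1, 8, 2, 7 and 4 FPKM in the cancers, against 14, 20 and 22 in the controls, with no overlap. It fell by 2.06 (standard error 0.51, limma adjusted p = 0.019), and without control 1, 2 or 3 the limma adjusted p was 0.052, 0.069 or 0.074. Aldh3b1, which starts 58.8 kb away, had 3, 2, 3, 2 and 10 FPKM in the cancers and 1 in each control, with every cancer above the controls and cancer 5 highest (a log2 change of 1.13, standard error 0.42, limma adjusted p = 0.070). Aldh1b1 had 6, 5, 3, 2 and 9 FPKM in the cancers, against 1, 2 and 2 in the controls (a log2 change of 1.07, standard error 0.39, limma adjusted p = 0.067). Aldh18a1, of proline synthesis, was at 0.22, Aldh5a1 at -0.36 and Aldh1l2 at -0.76 on the log2 scale, and none of these passed. Aldh8a1 was not tested, with 2 FPKM in cancer 5 and 0 in the other libraries.

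**Figure D2:**
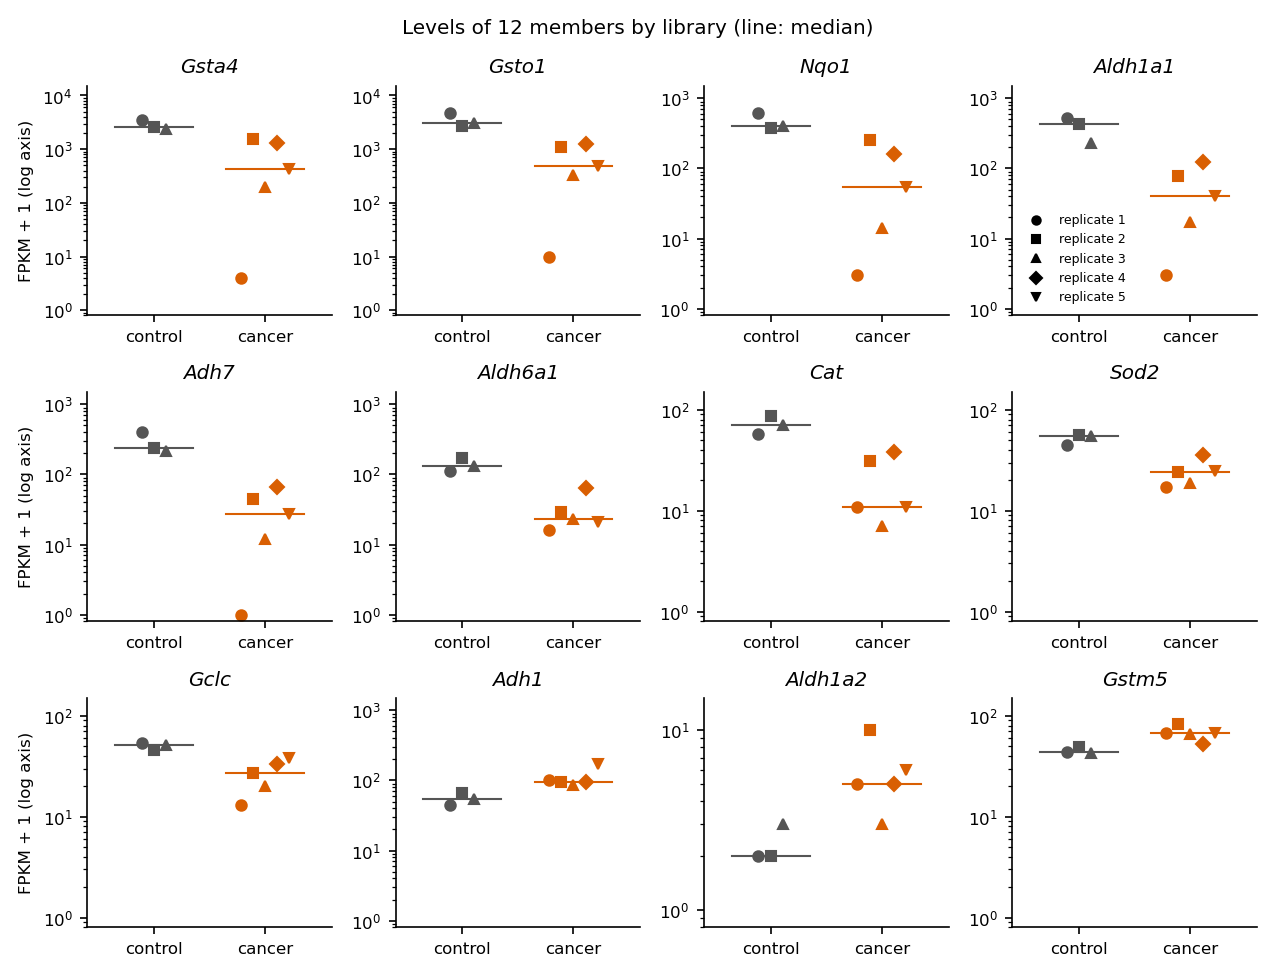
FPKM + 1 on a log axis (y) in each control and cancer library (x) for 12 members, with 1 symbol per replicate and a line at the group's median. Gsta4, Gsto1, Nqo1, Aldh1a1 and Adh7 spread widely among the cancers, with cancer 1 lowest. Aldh6a1 and Sod2 lie closer together, and in Adh1 and Gstm5 all 5 cancers are above the controls.

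Glutathione S-transferases took between 64.2% and 69.0% of the summed member FPKM in the controls and 17.2%, 60.8%, 42.9%, 61.4% and 46.1% in cancers 1 to 5. Their summed FPKM was 9773, 6604 and 6882 in the controls and 190, 3819, 826, 3499 and 1422 in cancers 1 to 5. Gsta4 (chromosome 9, 78191966 to 78209349), which conjugates the lipid peroxidation product 4-hydroxynonenal, had 3, 1556, 195, 1308 and 418 FPKM in the cancers, against 3423, 2583 and 2342 in the controls. Gsto1 (chromosome 19, 47854989 to 47864788), an omega class enzyme with reductase activity, had 9, 1107, 327, 1239 and 481 FPKM in the cancers, against 4622, 2739 and 3005 in the controls. For both genes every cancer was below every control, and cancer 1 was far below the other cancers. Neither passed the test, with log2 fold changes of -3.57 for Gsta4 (standard error 1.84, limma adjusted p = 0.16) and -3.52 for Gsto1 (standard error 1.51, limma adjusted p = 0.10). Without cancer 1 the log2 fold change of Gsto1 was -2.30 (limma adjusted p = 0.024). Together these genes made up between 51.3% and 56.8% of the summed member FPKM in the controls and 1.09%, 42.4%, 27.1%, 44.7% and 29.1% in cancers 1 to 5.

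Of the 4 alpha class genes 1 fell, beside 18.3% of all tested genes, and all 4 had negative values with FPKM, TPM and quantile normalization. Gsta2 had 0, 15, 3, 24 and 7 FPKM in the cancers, against 69, 45 and 45 in the controls, with no overlap between groups (a log2 change of -3.0, standard error 0.97, limma adjusted p = 0.047). The limma adjusted p was 0.12 with a pseudocount of 0.1, 0.10 and 0.078 without cancer 3 or 5, and 0.14, 0.11 and 0.11 without control 1, 2 or 3. Gsta1 and Gsta2 are close copies that can share reads, so that their split is uncertain. Gstk1, the kappa class enzyme of mitochondria and peroxisomes, had 6, 45, 6, 61 and 19 FPKM in the cancers, against 176, 106 and 80 in the controls. All cancers were below all controls, with cancers 1 and 3 lowest (a log2 change of -2.57, standard error 0.81, limma adjusted p = 0.043). That call was lost without cancer 1, 3 or 5 (limma adjusted p = 0.075, 0.085 and 0.077) and without control 1, 2 or 3 (limma adjusted p = 0.14, 0.11 and 0.089).

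The pi class held Gstp1 and its close copy Gstp2, between which reads can be divided in error. Gstp1 had 24, 179, 49, 169 and 108 FPKM in the cancers, against 352, 249 and 294 in the controls, with no overlap (a log2 change of -1.82, standard error 0.66, limma adjusted p = 0.064), and 0.047 was its limma adjusted p without cancer 2. Gstp2 had 1, 17, 2, 10 and 12 FPKM in the cancers, against 38, 31 and 40 in the controls. It fell by 2.43 (standard error 0.74, limma adjusted p = 0.040) and did not pass without cancer 3 (limma adjusted p = 0.083) or control 1, 2 or 3 (limma adjusted p = 0.12, 0.096 and 0.11). All 3 tested theta class genes fell with FPKM, as did 18.3% of all tested genes. With TPM none of the 3 was called lower, and Gstt1 and Gstt2 were at 0.02 and 0.17, where the median of all tested genes was 0.81. Gstt3 had 1, 22, 6, 18 and 12 FPKM in the cancers, against 52, 48 and 60 in the controls, and every cancer was below every control (a log2 change of -2.50, standard error 0.75, limma adjusted p = 0.037). Gstt1 had 25, 53, 45, 38 and 33 FPKM in the cancers against 87, 70 and 64 (a log2 change of -0.94, standard error 0.25, limma adjusted p = 0.023). Gstt2 had 10, 19, 13, 11 and 11 FPKM in the cancers against 28, 20 and 18 in the controls, with cancer 2 inside the control range (a log2 change of -0.75, standard error 0.23, limma adjusted p = 0.043). Each theta call was lost whichever control was left out, at limma adjusted p between 0.052 and 0.15, that of Gstt3 also without cancer 3 (0.086) or 5 (0.059), and that of Gstt2 without cancer 1, 3, 4 or 5 (0.079, 0.081, 0.072 and 0.078). Gstt4 was listed at 0 throughout.

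The mu class was divided. Gstm5 (chromosome 3, 107877230 to 107898685) had 66, 81, 65, 51 and 66 FPKM in the cancers, against 43, 48 and 42 in the controls, with every cancer above every control. It rose by 0.55 (standard error 0.16, limma adjusted p = 0.033), and its locus overlaps Eps8l3 and 4933431E20Rik in the table. The call was lost without cancer 1, 3 or 5 (limma adjusted p = 0.056, 0.066 and 0.054) and without control 1, 2 or 3 (limma adjusted p = 0.099, 0.068 and 0.099). Gstm1, the mu member with the highest FPKM in each control, had 24, 366, 58, 221 and 108 FPKM in the cancers, against 375, 306 and 348 in the controls. Cancer 2 was inside the control range and cancers 1 and 3 were lowest (a log2 change of -1.70, standard error 0.81, limma adjusted p = 0.14). The other 5 mu genes ranged from -1.70 for Gstm2 to 0.07 for Gstm4 on the log2 scale and none passed. Mu class genes are similar in sequence, and reads can be divided between them in error. Gstm5 took between 7.18% and 8.78% of the summed mu FPKM in the controls and 61.1%, 12.1%, 39.2%, 12.6% and 27.7% in cancers 1 to 5. Omega class Gsto2, 10.6 kb from Gsto1, was at 0.02 (standard error 0.25).

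**Figure D3:**
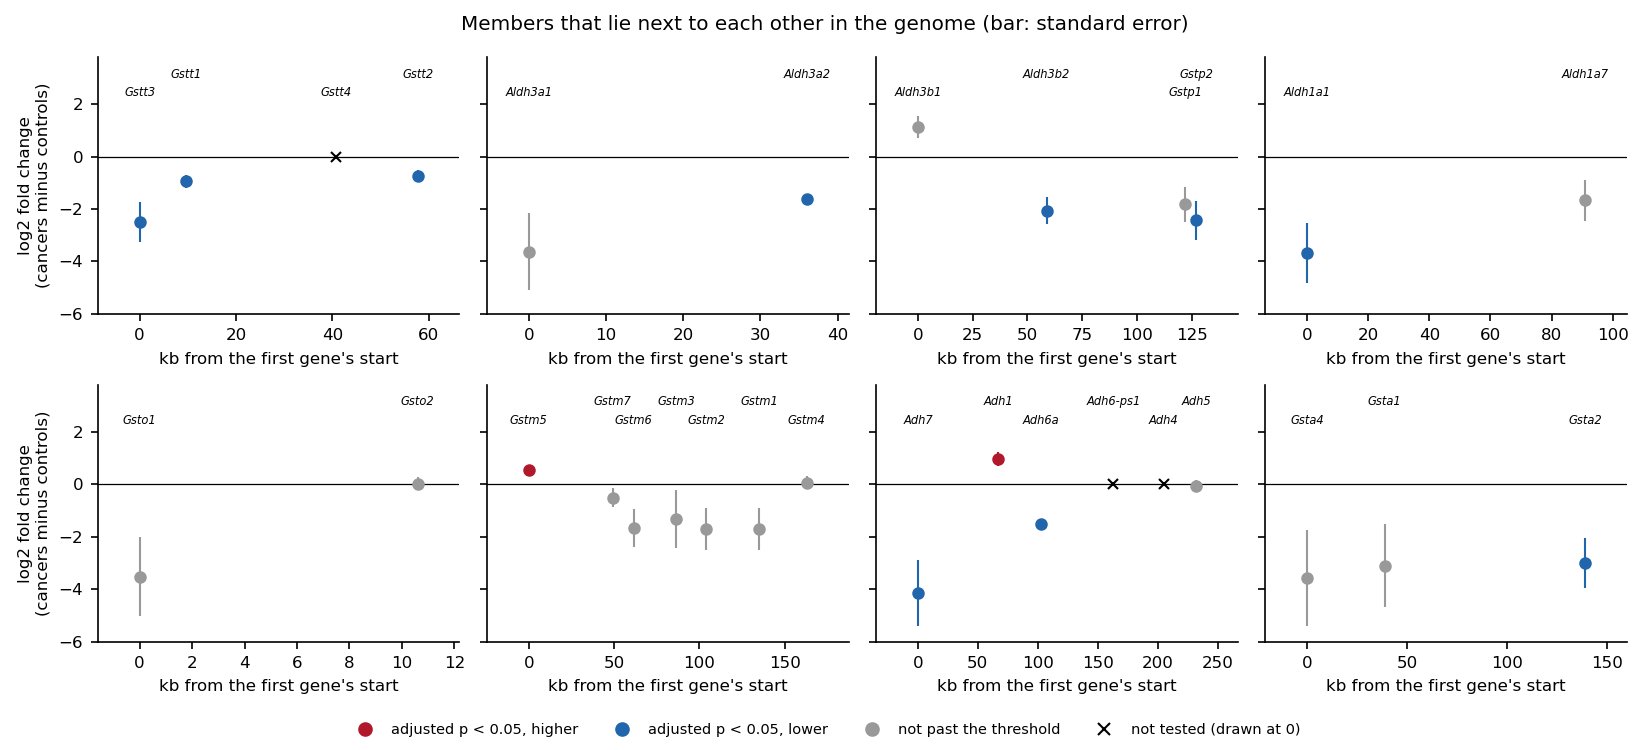
Log2 fold change (y, bars for the standard error) against distance in kb from the first gene's start (x) in 8 genomic clusters of members, coloured by the limma call. Gstm5 and Adh1 rose beside neighbours with negative values. Gsto1 (-3.52) and Gsto2 (0.02) differ within 10.6 kb, and crosses mark genes that were not tested.

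Among the NRF2-linked and glutathione supply genes, 2 of 6 fell, beside 18.3% of all tested genes, and 4 did not pass, all with negative values, of which those of Gclm, Gsr and Txnrd1 turned to 0.54, 0.03 and 0.32 with TPM. Nqo1 (chromosome 8, 107388225 to 107403205), the quinone reductase whose promoter is printed above, had 2, 251, 13, 161 and 53 FPKM in the cancers, against 624, 374 and 407 in the controls. Every cancer was below every control, but the cancers ranged from 2 to 251 FPKM. The log2 fold change was -3.54 (standard error 1.39, limma adjusted p = 0.080), with a limma adjusted p of 0.046 without cancer 2. Gclc, the catalytic subunit of the enzyme that limits glutathione synthesis, had 12, 26, 19, 32 and 37 FPKM in the cancers, against 53, 45 and 50 in the controls, with no overlap. It fell by 1.04 (standard error 0.34, limma adjusted p = 0.048), and the call was lost without cancer 2 or 3 (limma adjusted p = 0.069 and 0.10) and without control 1, 2 or 3 (limma adjusted p = 0.14, 0.11 and 0.13). With TPM the value of Gclc was -0.09 (limma adjusted p = 0.80) and with quantile normalization -0.67 (limma adjusted p = 0.15). With a pseudocount of 0.1 its limma adjusted p was 0.053. Gclm, the modifier subunit, had 24, 36, 32, 44 and 44 FPKM in the cancers, against 53, 40 and 50 in the controls. Cancers 4 and 5 were inside the control range (a log2 change of -0.42, standard error 0.22, limma adjusted p = 0.17).

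Txnrd1, the cytosolic thioredoxin reductase, had 51, 70, 51, 41 and 71 FPKM in the cancers, against 100, 81 and 83 in the controls, with no overlap. It fell by 0.65 (standard error 0.21, limma adjusted p = 0.045), and its locus holds Eid3. This was lost without cancer 1, 3 or 4 (limma adjusted p = 0.081, 0.095 and 0.056) and without control 1, 2 or 3 (limma adjusted p = 0.15, 0.095 and 0.099). Gsr, which returns oxidized glutathione to its reduced form, had 37, 98, 45, 59 and 84 FPKM in the cancers, against 148, 92 and 116 in the controls, with cancer 2 above control 2 (a log2 change of -0.93, standard error 0.34, limma adjusted p = 0.067). Hmox1, the heme oxygenase, had 14, 8, 9, 7 and 50 FPKM in the cancers, against 45, 47 and 35 in the controls. Cancer 5 was above all controls and the other 4 cancers were far below them (a log2 change of -1.61, standard error 0.59, limma adjusted p = 0.065). Without cancer 5 the log2 fold change of Hmox1 was -2.08 (limma adjusted p = 0.0033).

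Of the 5 genes that remove peroxide and superoxide, Cat and Sod2 fell, beside 18.3% of all tested genes, and 3 did not pass. Cat, the peroxisomal catalase, had 10, 30, 6, 37 and 10 FPKM in the cancers, against 56, 86 and 69 in the controls, with no overlap. It fell by 2.15 (standard error 0.57, limma adjusted p = 0.025), and the limma adjusted p was 0.053 without cancer 1 or 5 and 0.068, 0.089 and 0.078 without control 1, 2 or 3. Sod2, the mitochondrial superoxide dismutase, had 16, 23, 18, 35 and 24 FPKM in the cancers, against 44, 55 and 54 in the controls. Every cancer was below every control (a log2 change of -1.15, standard error 0.25, limma adjusted p = 0.012), and with TPM the difference was -0.20 (limma adjusted p = 0.42). Sod1, the cytosolic form, had 359, 627, 373, 566 and 388 FPKM in the cancers, against 699, 580 and 541 in the controls. Cancers 2 and 4 were inside the control range (a log2 change of -0.42, standard error 0.25, limma adjusted p = 0.22), and the value was 0.55 with TPM and 0.12 with quantile normalization.

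Gpx1, the widespread glutathione peroxidase, had 89, 392, 117, 238 and 151 FPKM in the cancers, against 466, 404 and 484 in the controls. Cancer 2 was just below the lowest control, and the gene narrowly missed the threshold (a log2 change of -1.39, standard error 0.46, limma adjusted p = 0.050), with a limma adjusted p of 0.012 without cancer 2. Gpx2, the form of digestive epithelium, had 16, 252, 78, 209 and 164 FPKM in the cancers, against 198, 169 and 188 in the controls. Cancers 2 and 4 were above every control, cancers 1, 3 and 5 below (a log2 change of -0.85, standard error 0.84, limma adjusted p = 0.45), and the value was 0.12 with TPM.

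The cancers kept a similar order across many members. Cancer 1 was the lowest of the 5 cancers, without a tie, in 34 of 53 tested members (64.2%), against 19.6% of all tested genes and 37.9% of those called lower. The order cancer 1, then 3, then 5, then both 2 and 4 was seen in 21 members (39.6%), against 6.52% of all tested genes and 14.8% of those called lower. Among the 22 members called lower it was seen in 6 (27.3%). Cancer 2 was the highest in 23 members, cancer 4 in 14 and cancer 5 in 11. Summed over the members FPKM was 1102, 6280, 1925, 5697 and 3087 in cancers 1 to 5 and 14155, 10280 and 10421 in controls 1 to 3. The order was chosen after the values were seen and is a description. Summed FPKM of the whole table followed it too, with 403569 in cancer 1, 438744 in 3, 445770 in 5, 559720 in 4 and 573858 in 2, and the part of this scale in the order was not tested.

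**Figure D4:**
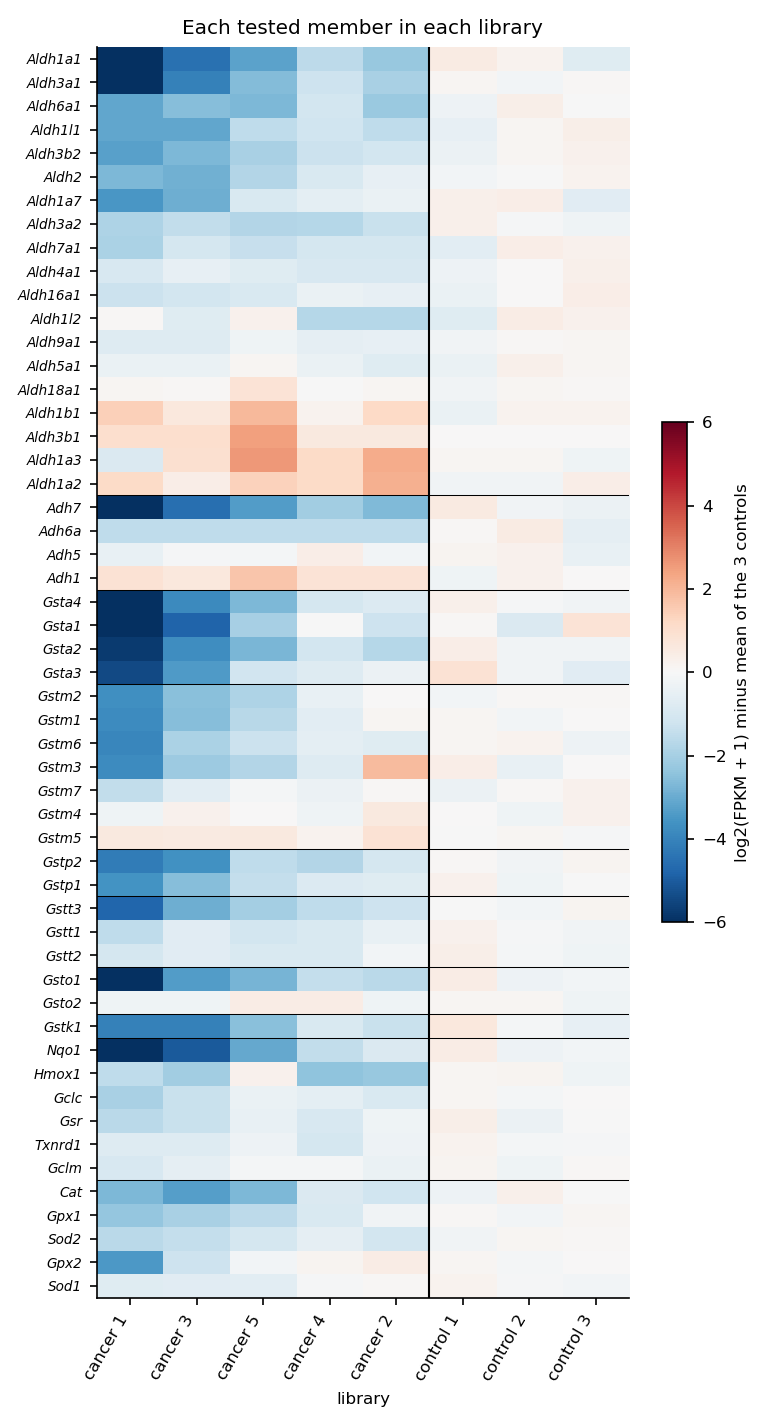
Log2(FPKM + 1) minus the mean of the 3 controls (colour, drawn from -6 to 6, beyond which the end colour is used) for the 53 tested members (rows, grouped by class) in each library (columns). Cancers are placed in the order 1, 3, 5, 4, 2. Most rows are darkest in cancer 1 and palest in cancers 4 and 2, and Adh1, Aldh1a2 and Gstm5 are red across the cancers.

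Markers of pit and neck mucous cells were likewise lowest in cancer 1, then 3, then 5, whereas squamous markers were second lowest in cancer 2. The summed FPKM of 6 pit and neck mucous cell markers was 691, 72677, 5226, 46224 and 15908 in cancers 1 to 5 and 205368, 146212 and 214340 in the controls, with Muc5ac and Muc6 listed at 0 in cancer 1. Within this list Tff2 had 2, 7031, 437, 2259 and 1189 FPKM in the cancers, against 3714, 2223 and 2343 in the controls. Muc6 had 0, 48, 6, 31 and 26 FPKM, against 20, 25 and 43, and for both genes the groups overlapped. The summed FPKM of 7 parietal cell markers was 1, 1548, 218, 2695 and 306 in the cancers and between 6695 and 12540 in the controls, with 6 of 7 at 0 in cancer 1, Atp4a and Atp4b among them. Gif, which chief cells make in the mouse, gave 178 of the 306 in cancer 5, and Atp4b was lower in cancer 5 (41 FPKM) than in cancer 3 (106 FPKM). Squamous forestomach markers (9) summed to 2, 31, 869, 3344 and 1197 in the cancers and to between 4601 and 7254 in the controls, with 7 at 0 in cancer 1. In cancer 4, however, Krt5, Krt14 and Trp63 (574, 403 and 21 FPKM) were above the highest control (203, 143 and 11 FPKM). Ivl was above it in cancer 2 (9 against 4 FPKM). Krt13, Krt4, Lor, Krtdap and Sprr3 were below every control in every cancer. Chief cell markers (5) summed to between 19 and 10059 in the cancers and to 43924, 64 and 26921 in the controls, where Pgc was listed at 0 in controls 2 and 3. Endocrine markers (5) summed to between 7746 and 17202 in the cancers and between 123 and 185 in the controls, and all 5 rose, where 16.2% of all tested genes did. Called lower were 1 of 6 pit and neck mucous, 3 of 7 parietal, 2 of 9 squamous and 1 of 5 chief cell markers, beside 18.3% of all tested genes. The part of these cell types in the levels of the detoxification genes was not tested.

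Markers of other tissues stood out in single libraries. Hepatocyte markers (11) summed to 1027 in cancer 5, to between 26 and 72 in the other cancers and to between 3 and 6 in the controls, and Fga, Fgg, Apoh, Serpina1a, Serpina1c and Cps1 were above 0 only in cancer 5. Cancer 5 was the highest cancer for 11 tested members, among them Adh1, an abundant transcript of the liver, Aldh1b1, Aldh3b1 and Hmox1. For 23 members cancer 2 was highest, Aldh2, Gstm1 and Gsta3 among them, and for 14 cancer 4, Cat among them. Adh1 rose by 0.78 without cancer 5, but Alb was also above its control level of 1 in cancers 1 to 3 (16, 18 and 58 FPKM) and Tat above its level of 0 in every cancer. The part of hepatocytes in these values was not tested. Lymphocyte markers (6) summed to 130 and adipocyte markers (4) to 540 in cancer 1, against at most 5 and 52 in the other cancers and 4 and 179 in the controls. Over the cancers and the controls the sums ranged from 43 to 1692 and 355 to 549 for smooth muscle, 62 to 329 and 72 to 133 for fibroblasts, 11 to 30 and 8 to 9 for macrophages, and 14 to 54 and 6 to 12 for endothelium. They were 11 to 59 and 14 to 19 for erythroid cells, and 17 to 89 and 37 to 80 for enterocyte-like intestinal epithelium. As for the deleted genes, Trp53 had 12, 22, 12, 30 and 12 FPKM in the cancers, against 16, 17 and 19 in the controls, and Rb1 had 4, 4, 5, 6 and 4 against 9, 9 and 10, but gene-level values cannot show the loss of single exons.

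**Figure D5:**
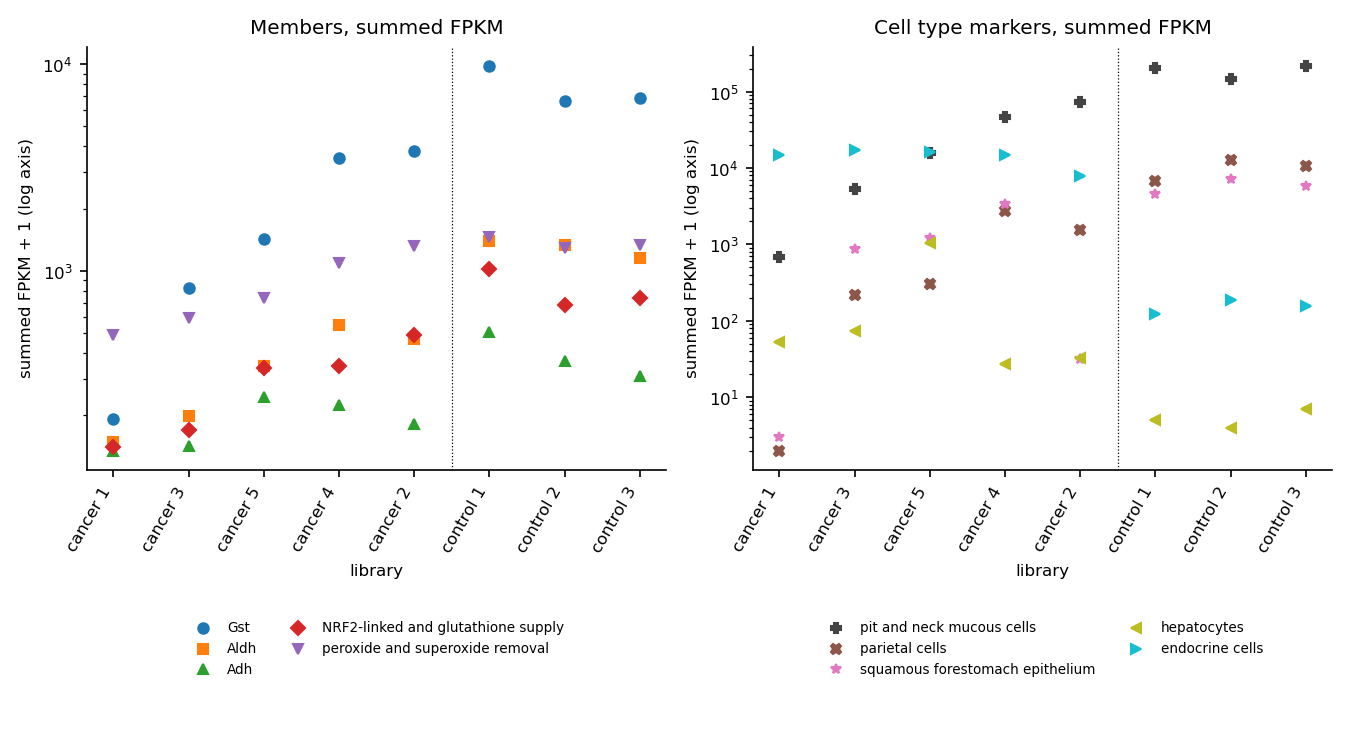
Summed FPKM + 1 (y, log axes) in each library (x, cancers in the order 1, 3, 5, 4, 2) for 5 groups of members (left) and 5 lists of cell type markers (right). The Gst sum runs from 190 in cancer 1 to 3819 in cancer 2 and is 6604 or more in each control. The pit and neck mucous sum runs from 691 to 72677 in the same cancers, and hepatocyte markers peak in cancer 5.

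Related genes outside the family were taken from 4 lists with 144 genes in the table. Of 129 tested, 42 fell and 11 rose, as did 18.3% and 16.2% of all tested genes, and the median log2 fold change was -0.79. With TPM 10 were called lower and 38 higher at a median of 0.11, where 3.68% and 50% of all tested genes were. Of these 129 genes 5 were at 0 in every library of 1 group, so that the filter set their direction, and without them 41 fell and 8 rose. The highest share of falls was in the other phase I and II genes, 25 of 51 with 2 rising (median -1.66, and -0.92 with TPM). Ces2c, a carboxylesterase, had 0, 28, 3, 12 and 14 FPKM in the cancers, against 219, 83 and 121 in the controls (a log2 change of -4.14, standard error 1.04, limma adjusted p = 0.020). Cyp2s1, an epithelial cytochrome P450, had 2, 110, 10, 53 and 39 FPKM in the cancers against 369, 237 and 430 (a log2 change of -3.81, standard error 1.10, limma adjusted p = 0.032). Sult1b1, a sulfotransferase, had 0, 28, 4, 19 and 9 FPKM against 104, 62 and 49 (a log2 change of -3.15, standard error 1.03, limma adjusted p = 0.048). In all 3 genes no cancer reached a control and cancer 1 was lowest. Without control 1, 2 or 3 none of the 3 passed (limma adjusted p between 0.053 and 0.15), nor without cancer 3 (0.052 to 0.10), and Cyp2s1 and Sult1b1 did not without cancer 5 (0.051 and 0.078). With TPM Ces2c and Cyp2s1 passed (limma adjusted p = 0.031 and 0.036) and Sult1b1 did not (0.089), nor did Sult1b1 with quantile normalization (0.056). With a pseudocount of 0.1 the limma adjusted p was 0.064 for Ces2c and 0.12 for Sult1b1. The 10 related genes called lower with TPM were Abcc3, Aox4, Cbr3, Ces2c, Cyp2c55, Cyp2s1, Dhrs9, Fmo5, Nfe2l2 and Rara. Among these the direction of Cyp2c55, listed at 0 in every cancer, was set by the filter.

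In the other glutathione and thioredoxin genes 11 of 45 fell and 6 rose (median -0.58, and 0.25 with TPM), where 18.3% and 16.2% of all tested genes did. Ggt5, counted as rising, was at 0 in every control and met the filter through the cancers alone, and 5 rose without it. Among the 6 was Gstz1, a zeta class glutathione S-transferase named after its values were seen, with 57, 32, 71, 37 and 31 FPKM in the cancers, against 15, 21 and 17 in the controls (a log2 change of 1.25, standard error 0.30, limma adjusted p = 0.018). Without control 1 or 3 the limma adjusted p of Gstz1 was 0.073 or 0.062. Gpx3, the secreted glutathione peroxidase, had 1818, 1056, 739, 474 and 438 FPKM in the cancers, against 23, 26 and 20 in the controls. Every cancer was far above the controls and cancer 1, lowest in most members, was highest here (a log2 change of 5.04, standard error 0.46, limma adjusted p = 0.00087). Prdx4, the peroxiredoxin of the endoplasmic reticulum, had 518, 239, 597, 261 and 592 FPKM in the cancers, against 64, 62 and 72 in the controls (a log2 change of 2.62, standard error 0.36, limma adjusted p = 0.0028). Both passed whichever library was left out. Abcc3, an exporter of conjugates, had 7, 51, 10, 22 and 29 FPKM against 116, 98 and 130 (a log2 change of -2.53, standard error 0.58, limma adjusted p = 0.016), and did not pass without control 1 or 3 (limma adjusted p = 0.059 and 0.060).

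Of 11 NRF2 regulators 2 fell and 1 rose (median -0.05, and 0.90 with TPM), shares no higher than the 18.3% and 16.2% of all tested genes. Nfe2l2, which encodes NRF2, had 19, 99, 39, 109 and 51 FPKM in the cancers, against 323, 275 and 271 in the controls. All cancers were below all controls, again with cancers 1 and 3 lowest. Nfe2l2 differed by -2.42 (standard error 0.54, limma adjusted p = 0.014), and by -1.47 with TPM (limma adjusted p = 0.019). Without control 1 its limma adjusted p was 0.057. Keap1, the adaptor that directs NRF2 to degradation, had 23, 19, 23, 17 and 21 FPKM in the cancers, against 24, 19 and 21 in the controls (a log2 change of -0.05, standard error 0.14, limma adjusted p = 0.80), and its value turned to 0.90 with TPM. Mafk, a small Maf partner of NRF2, had 12, 19, 15, 18 and 23 FPKM against 36, 24 and 32 (a log2 change of -0.79, standard error 0.23, limma adjusted p = 0.031), turned to 0.14 with TPM, and did not pass without cancer 3 (0.071) or control 1 or 3 (0.12 and 0.097). Bach2, the gene counted as rising, had 1 FPKM in 4 cancers and 0 elsewhere, the smallest step of these values, and met the filter through the cancers alone, which fixes its direction.

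Of 22 retinoid genes tested 4 fell and 2 rose (median -0.68, and 0.19 with TPM), shares no higher than the 18.3% and 16.2% of all tested genes. Rbp4, the plasma carrier of retinol, had 917, 374, 278, 12 and 108 FPKM in the cancers, against 3, 6 and 5 in the controls. The cancers spread widely and all lay above the controls (a log2 change of 4.93, standard error 1.24, limma adjusted p = 0.020), and without cancer 3 or control 1, 2 or 3 the limma adjusted p was 0.052, 0.079, 0.061 or 0.066. Bcmo1, which cleaves carotene to retinal, had 10, 4, 9, 2 and 9 FPKM in the cancers and was listed at 0 in every control, so that it met the filter through the cancers alone, and 1 retinoid gene rose without it. Dhrs9, a retinol dehydrogenase, had 0, 2, 0, 2 and 4 FPKM in the cancers, against 15, 10 and 15 in the controls, with no overlap (a log2 change of -2.72, standard error 0.57, limma adjusted p = 0.011). With a pseudocount of 0.1 the limma adjusted p of Dhrs9 was 0.053.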

How the data were processed

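RNA of 5 SCJ cancers and 3 control SCJ samples was sequenced after polyA+ selection with a directional kit. Per the submitters' processing notes and the study's methods, the authors trimmed reads with cutadapt 1.8, aligned them with TopHat2 2.0.13, quantified UCSC mm10 genes with cuffquant and made FPKM with Cuffnorm 2.2.1. The cuffnorm normalization and strand options are not given in the sources used here. In the deposited table these FPKM are rounded to whole numbers and were treated as a score, not as read counts, so depth per library is unknown and no counting intervals are given. All columns were used. A gene was tested when 3 or more samples had FPKM of 1 or more. log2(FPKM + 1), a pseudocount of 1, was fitted by limma 3.58.1 under R 4.3.3 (lmFit, then eBayes using a trend). The Benjamini-Hochberg method adjusted p over all 14357 genes, at a threshold of 0.05. The script was tested on simulated data. Alternatives were a pseudocount of 0.1, no filter, a mean FPKM of at least 5, TPM, quantile normalization, no trend, array weights, a replicate block and leaving out each library. The members, gene lists and tests were chosen with earlier results of these data known. Genes named were the 11 single genes of the rule, in each class up to 5 called members with the largest change and the most abundant one, up to 3 called genes per related list, Nfe2l2, Keap1, Trp53 and Rb1. Others were named after their values were seen. All 57 loci overlapped their RefSeq entry.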

Additional observations from a re-analysis of the deposited data

Results flagged for a closer look

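Of 44 values examined for a sample far from the rest of its group among the 5 cancers (Dixon's ratio of the gap to the range above 0.71, on log2(FPKM + 1)), 3 stood apart, where chance gives about 1 in 20 groups, or 2.2. Adh1 was highest in cancer 5, at 173 FPKM (ratio 0.773), the library in which hepatocyte markers summed to 1027, and it rose by 0.78 without that library. Gsto1 was lowest in cancer 1, at 9 FPKM (ratio 0.724), the library in which the parietal cell genes Atp4a and Atp4b were listed at 0, and the part of cell content was not tested. Bach2 was lowest in cancer 2, at 0 FPKM, with 1 FPKM in each other cancer (ratio 1.0), a gap of the smallest step that whole numbers allow.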

How the results depend on the processing

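Of 717 values of 45 named genes under the alternatives, 507 kept their sign and their call, 172 no longer passed, 18 passed newly and 20 changed sign. With TPM the members called higher numbered 11 and lower 5, the related genes 38 and 10, and all genes 7176 and 528. Array weights gave 5 and 37 members, 80 related genes lower, and 3909 and 4239 of all genes. Quantile normalization gave 10 members lower, and a mean FPKM of at least 5 gave 1244 of all genes higher, with fewer genes tested. Leaving out 1 library gave 0 to 3 members higher and 4 to 25 lower, 5 to 10 and 12 to 49 related genes, and 1362 to 2459 and 1186 to 2773 of all genes. With TPM the log2 fold change turned to 0.12 for Gpx2, 0.55 for Sod1, 0.54 for Gclm, 0.032 for Gsr, 0.32 for Txnrd1, 0.018 for Gstt1, 0.17 for Gstt2, 0.14 for Mafk, 0.90 for Keap1 and 0.86 for Trp53. Quantile normalization gave 0.12 for Sod1, 0.24 for Keap1 and 0.13 for Trp53. Keap1 was also at 0.09 with array weights, 0.022 with the replicate block, and 0.013 and 0.034 without cancer 4 or control 1 (range -0.13 to 0.034), and Trp53 at 0.027 without cancer 1, 3 or 5 (range -0.29 to 0.027). The cause was not tested.

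Replicate numbers are shared by both groups, but same-numbered samples did not deviate together (correlations -0.021, -0.19 and -0.10). As a block they gave 0 members higher and 4 lower, 7 and 8 related genes, and 982 and 552 of all genes. The whole-number values limit what can be seen in genes near 1 FPKM, and the unknown depth leaves genes listed at 0 without a limit of detection.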
